A study of Mus musculus with 1115 samples.

Results

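The cells described here are the 71 radial glial cells (RGCs) that the authors' cell table placed in expression cluster 7, 11.2% of the cells it called RGCs, in a series of 1115 cells. They were chosen by that table alone, as cells of cluster 7 with the cell type RGCs, and 1 further cluster 7 cell, called an intermediate progenitor, was left out. The comparison cells were all RGCs of clusters 0, 1 and 3. Cells were taken on embryonic day 13.5 from C57BL/6 cerebral cortex that had been electroporated in utero with a plasmid that carries mRFP under the CAG promoter and GFP under the Hes5 promoter. The Hes5_GFP cells were sorted as positive for both proteins, and the CAG_mRFP cells as positive for mRFP only. Both groups therefore carried the plasmid, the reporters mark only cells that took it up, and the labels do not tie cells to embryos. The library of each cell was made by a modified Smart-seq2 protocol, which amplifies polyadenylated RNA from a lysed single cell without molecular identifiers. The cell table gave 5 sort dates, numbered here as sort days 1 to 5 in order of date.

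Radial glia are the stem cells of the developing cortex: their bodies lie at the ventricle, their fibres span the wall, and they divide to give neurons directly or through intermediate progenitors (IPCs). Notch signalling keeps them undifferentiated through the Hes genes, and Sox9, Pax6, Vim, Fabp7 and Slc1a3 mark them. In plate-based single-cell RNA-seq, the number of genes detected in a cell depends on how much intact RNA entered reverse transcription as well as on the cell's own program.

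The working name of the cluster rests on low complexity and on 3 genes, Gm10800, Gm10801 and Lars2. Gm10800 (chr2:98666547-98667301, minus strand) and Gm10801 (chr2:98662237-98664083, plus strand) are protein-coding models in GENCODE M21 on GRCm38, the same build as mm10. Their sequences are shown because they are so alike that reads cannot be assigned to them safely. The last coding exons of both, with the 12 positions at which they differ in capitals, read 5′ to 3′ on the gene's own strand as follows.
Gm10800 (chr2:98666547-98666669, minus strand): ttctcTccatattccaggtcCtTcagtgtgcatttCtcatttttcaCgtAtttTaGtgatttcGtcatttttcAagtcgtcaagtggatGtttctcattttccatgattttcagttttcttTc
Gm10801 (chr2:98663961-98664083, plus strand): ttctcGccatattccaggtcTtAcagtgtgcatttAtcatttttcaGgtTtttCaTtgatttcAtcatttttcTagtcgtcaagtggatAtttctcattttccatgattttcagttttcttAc
These exons were identical at 90.2% of their positions. Over the whole transcripts, 53.55% of the 21-base words of Gm10800 and 51.8% of those of Gm10801 also occurred in the other models of the same kind, 12 for each gene, most of them on chromosome 9. AY036118 (chr17:39847113-39848035, minus strand), a non-coding model in the ribosomal RNA region, shared all of its words with Gm42418. Lars2 (chr9:123366927-123462666, plus strand), the mitochondrial leucyl-tRNA synthetase, shared none with these genes or with the mitochondrial ribosomal RNAs. Counts of Gm10800, Gm10801 and AY036118 are therefore uncertain.

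The 3 marker genes were abundant in few of the cluster 7 cells, and these came mainly from the early sort days. Among the 13 cluster 7 cells of sort days 1 to 3, Gm10800 ran from 0 through a median of 4191 to 46986 CPM, the gene's count scaled to a common total per cell. In the 58 cells of sort days 4 and 5 it ran from 0 through a median of 9.16 to 1016 CPM. More than 1000 CPM of Gm10800 was seen in 7 of the 13 early cells and in 1 of the 58 later ones. Lars2 passed 1000 CPM in 7 of 13 early cells and 1 of 58 later cells, with medians of 1338 and 14.2 CPM. Gm10801 had a median of 394.9 CPM in the early cells, and at least 1 read in 8 of the 58 later cells. Most cluster 7 cells thus did not carry these genes at a high level, and the cells are named here by their cluster number. The levels above are of cluster 7 cells alone and do not separate the cluster from the sort day.

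The genes annotated in the ribosomal RNA region (AY036118, Gm42418 and Gm26917) followed the same days. They took 3.37% to 73.2% of the counts of the 13 early cluster 7 cells, with a median of 20.8%, against a median of 7.06% and a highest value of 19.2% in the comparison RGCs of those days. In the 58 later cells they took a median of 0.393% and at most 5.67%, and in the later comparison RGCs a median of 0.871%. The comparison RGCs differed by day as well, with a median of 12.2% on day 1 and 0.328% on day 3, and there were none on day 2. Sort day 4 still showed a trace of the label's genes: Gm10800 had a read in 30 of 53 cluster 7 cells and 31.5% of comparison RGCs, with pooled levels of 48.5 and 5.12 CPM. A single cell gave 56.5% of those cluster 7 Gm10800 reads. The day 4 log2 ratios were 3.05 for Gm10800, 1.68 for Lars2 and 0.84 for AY036118. Leaving out a sort marker, or a day in strata of at least 3 cells, gave ratios down to 0.04, 0.66 and -0.69.

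**Figure D1:**
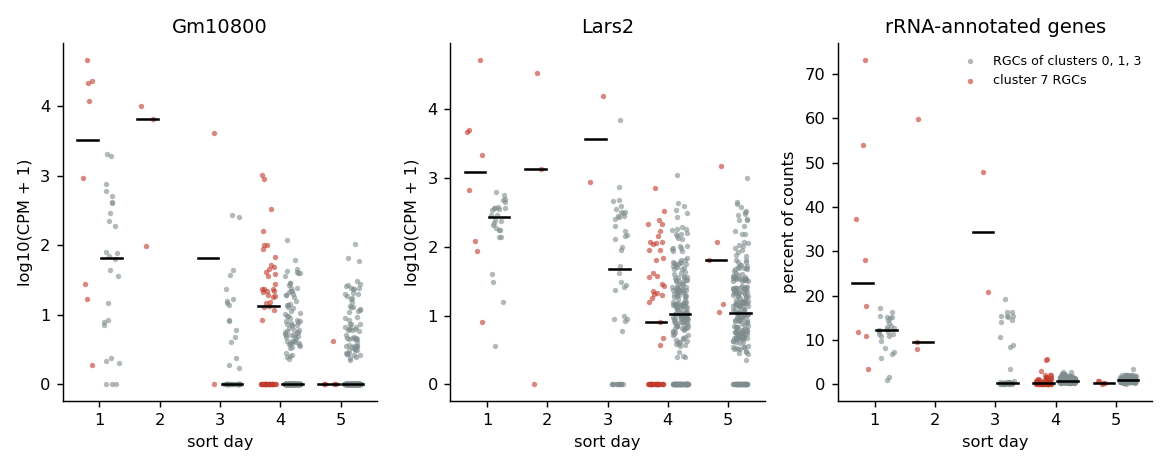
Level of Gm10800 and Lars2 on a log10(CPM + 1) scale and percent of counts from AY036118, Gm42418 and Gm26917 (y axes) in each cell, by sort day (x axis), with cluster 7 RGCs in red, RGCs of clusters 0, 1 and 3 in grey and black bars at medians. The cluster 7 cells above 1000 CPM of Gm10800 are 7 of 13 on days 1 to 3 and 1 of 58 on days 4 and 5.

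Low complexity was the more general property. Cluster 7 cells had a median of 1165 detected genes (at least 1 count) and at most 3537, and comparison RGCs a median of 3684 and at most 4794. None of the 71 cells reached the comparison median, and 3 comparison RGCs lay under the cluster 7 median. Total counts overlapped more: 1912 to 1139153 with a median of 93374 in cluster 7, and 10179 to 1772986 with a median of 288182 in the comparison RGCs. The totals of 66 of 71 cluster 7 cells were inside the comparison range. The most abundant 50 genes of each cell took a median of 26.05% of its counts in cluster 7, at most 94.5%, and a median of 15.1% in the comparison RGCs.

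The gap in detected genes remained at a fixed depth. On sort day 4, each cell was thinned at random to 10000 counts, which left out 3 cluster 7 cells and no comparison RGC. Among Hes5_GFP cells, a median of 935.5 genes and at most 1531 were then detected in cluster 7, and a median of 2494 and at most 3238 in the comparison RGCs. Among CAG_mRFP cells the medians were 862 and 2663 genes. The ratio of medians was 0.375 and 0.324, with a mean of 0.349 ± 0.036 (SD, n = 2 sort markers). The gap was smaller among the 4 Hes5_GFP cells of sort day 1, with a median of 1827 genes against 2220, and lay between these among the 4 of day 5, with 1351.5 against 2638.5. Unthinned, the day 4 medians were 1160 genes in cluster 7 and 3533 in the comparison RGCs. Since clusters were formed from the expression of all genes, differences between them are descriptions and were given no test.

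**Figure D2:**
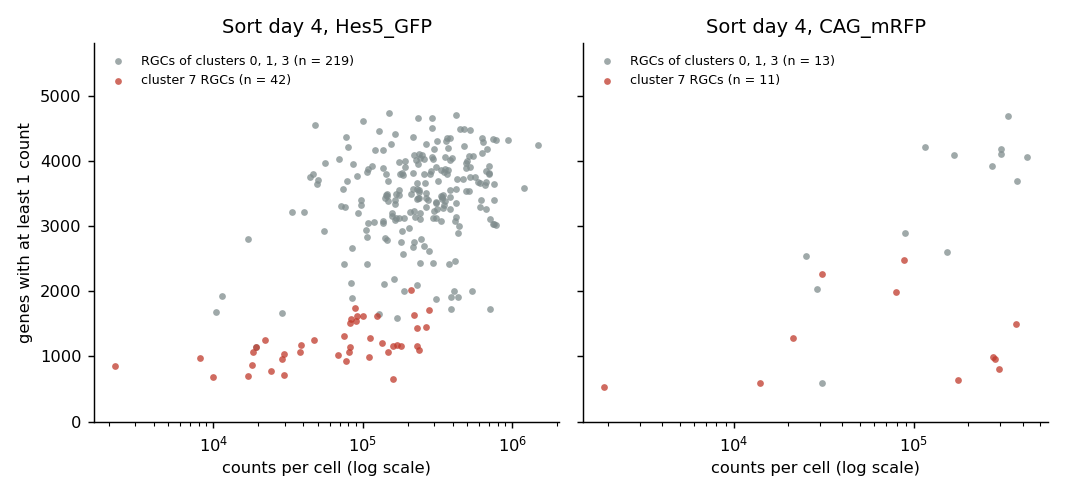
Genes with at least 1 count (y axis) against counts per cell on a log axis (x axis) for sort day 4 RGCs, 1 point per cell, with Hes5_GFP cells on the left and CAG_mRFP cells on the right. Cluster 7 cells (red) reach at most 2479 genes, and the medians of 1162 (Hes5_GFP) and 991 (CAG_mRFP) lie under 3524 and 3922 in the comparison RGCs (grey).

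The mitochondrial share in the authors' cell table was higher in day 4 cluster 7 cells, with values of 0.663% to 4.78% and a median of 2.44%, than in day 4 comparison RGCs, with 0.239% to 4.92% and a median of 1.23%. These ranges overlapped almost entirely, and the early cluster 7 cells had a lower median, 0.749%. The authors' phase calls placed 52 cluster 7 cells in G1, 3 in S and 16 in G2M, so that 73.2% were called G1, against 29.7% of the comparison RGCs. The part of the low gene number in these calls was not tested.

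Class identity was asked from 3 lists, 45 genes in all, for radial glia, IPCs and cortical neurons. Each cell at 10000 counts was given to the class, RGCs of clusters 0, 1 and 3, IPCs or ENs (the table's neurons), whose mean profile had the highest Spearman correlation with it, the cell itself left out of its own class mean. Of 67 cluster 7 cells deep enough, 50 were nearest to the RGC mean (74.6%, exact 95% interval 62.5 to 84.5, counting error only), 13 to the IPC mean and 4 to the EN mean. By the same measure 98.5% of comparison RGCs, 3 IPCs (1.596%) and 0 ENs (at most 1.30%) were nearest to the RGC mean. Median rho to the RGC mean was 0.52 in cluster 7 and 0.71 in the comparison RGCs. Most cluster 7 cells were thus nearest to the RGC mean, at a lower median rho than the other RGCs, and 17 of the 67 were not. The cells were chosen by the authors' RGC call, so nearness to RGCs is no independent support for that call. The part of the low gene number in the lower rho was not tested.

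The cells that were not nearest to the RGC mean were spread unevenly over the sort markers. On sort day 4, 35 of 40 Hes5_GFP cells of cluster 7 (87.5%, exact 95% interval 73.2 to 95.8) were nearest to RGCs, 5 to IPCs and 0 to ENs, a count that allows up to 8.81%. Of the 10 CAG_mRFP cells, 3 were nearest to RGCs (exact 95% interval 6.67% to 65.3%), 4 to IPCs and 3 to ENs. The corresponding comparison RGCs were nearest to RGCs in 98.6% of Hes5_GFP cells and 11 of 13 CAG_mRFP cells. The 12 early cluster 7 cells with enough counts were split as 7, 4 and 1, and all 5 cells of day 5 were nearest to RGCs. Cells of 1 sort share their day, so these intervals do not cover differences between embryos.

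**Figure D3:**
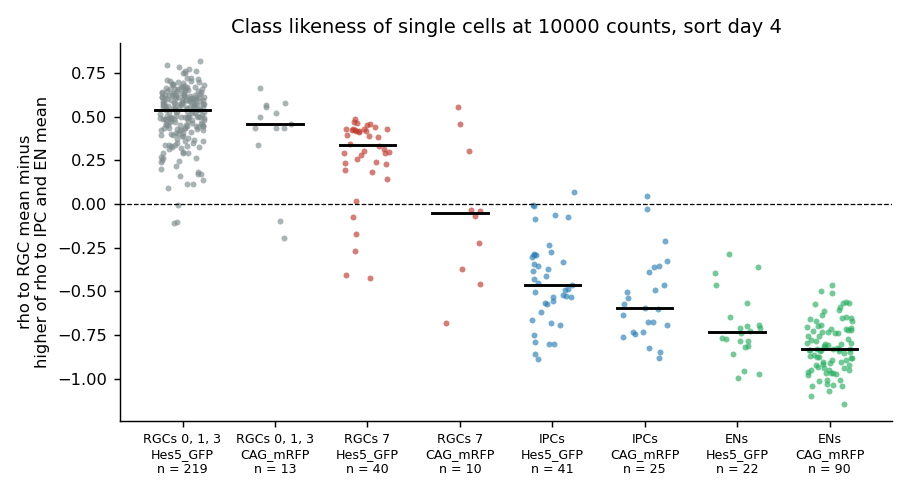
Spearman rho of each sort day 4 cell with the RGC mean minus the higher of its rho with the IPC and EN means (y axis), by class and sort marker (x axis), with black bars at medians. Points above 0 are nearest to RGCs: 35 of 40 Hes5_GFP and 3 of 10 CAG_mRFP cells of cluster 7, against 98.6% and 11 of 13 of the comparison RGCs.

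Counted gene by gene at 10000 counts, the day 4 cluster 7 cells had a read of 5.76 of the 18 radial glia genes on average, the comparison RGCs 10.2, IPCs 4.35 and ENs 1.88. They had 0.58 of the 12 IPC genes, where the comparison RGCs had 0.858 and IPCs 6.53. They had 0.72 of the 15 neuronal genes, where the comparison RGCs had 1.25 and ENs 8.29. The sort markers differed in the neuronal list: Hes5_GFP cells of cluster 7 had 0.55 of its genes against 1.26 in the comparison RGCs, and CAG_mRFP cells 1.4 against 1. Neurod6 alone had a read in 6 of these 10 CAG_mRFP cells. IPC genes were fewer in both sort markers, 0.5 against 0.822 in Hes5_GFP and 0.9 against 1.46 in CAG_mRFP cells. The radial glia genes were fewer in both, 6.22 against 10.2 and 3.9 against 9.23.

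Across all genes of sort day 4, summed counts of cluster 7 (5876136 in 53 cells) and of the comparison RGCs (69313518) were compared as CPM within each sort marker, with a prior of 1 CPM. A gene was counted as higher or lower when the mean log2 ratio was past 2-fold with 1 sign in both sort markers. Of 10179 genes with at least 5 CPM on either side, 876 were higher in cluster 7 (8.61%) and 4751 lower (46.7%), with a median log2 ratio of -1.71. Of the genes counted in either direction, 15.6% were higher, and with DESeq2 size factors, which moved the median to -1.26, that share was 26.2% (1332 higher, 3751 lower). The ratios below are read against that shared shift. With each sort marker taken alone, over the genes measured in it, the median was -0.85 for Hes5_GFP cells and -3.03 for the 11 and 13 CAG_mRFP cells.

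The counts of the radial glia list were near those of all genes. Of 17 measured members, 1 was higher, 8 were lower and the other 8 met neither rule, beside 8.61% higher and 46.7% lower over all genes, with a median log2 ratio of -1.26 beside -1.71. Dbi, which encodes an acyl-CoA binding protein abundant in radial glia, was the higher member, at 2568 against 853 CPM with a read in 52 of 53 cells (log2 ratio 1.61 ± 0.21, SD over the sort markers). Fabp7, the brain fatty acid binding protein, stood at 2916 and 1095 CPM, with a read in 43 of 53 and 96.1% of cells (0.94 ± 1.14). Its level per cell ran from 0 through a median of 1231 to 25580 CPM in cluster 7, overlapping the whole range of the comparison RGCs. Vim, the intermediate filament of radial glia, stood at 816 and 640 CPM (0.15 ± 0.39), and Ptn, the secreted growth factor pleiotrophin, at 1603 and 1458 CPM (0.33 ± 0.17).

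Of the other members, Sox9, Pax6, Slc1a3, Nes and Ddah1 were lower by the mean over the sort markers, and Sox2, a progenitor transcription factor, was not (74.4 and 32.6 CPM, 0.04 ± 2.17). Sox9, the transcription factor in the study's title, was at 404.9 CPM in cluster 7 and 664.1 CPM in the comparison RGCs, with a read in 32 of 53 and 97.8% of cells (log2 ratio -1.18 ± 1.15). Its level per cell had a median of 84.95 CPM and a highest value of 1967 in cluster 7, and a median of 516.7 CPM and a highest value of 1742 in the comparison RGCs, so single positive cells reached the same level. Pax6, the regulator of cortical progenitor fate, was at 36.8 CPM in CAG_mRFP and 176.9 CPM in Hes5_GFP cells of cluster 7, against 392.4 and 433.3 CPM, with a read in 34 of 53 and 94.4% of cells (-2.33 ± 1.48). Slc1a3, the glutamate transporter GLAST, was at 34.3 CPM in CAG_mRFP and 546.1 CPM in Hes5_GFP cells of cluster 7, against pooled levels of 705.9 CPM over both sort markers of the comparison RGCs, with a read in 17 of 53 and 87.5% of cells (-2.37 ± 2.83). At 10000 counts, Slc1a3 was read in 11 of 50 cluster 7 cells (exact 95% interval 11.5% to 35.96%) and 82.3% of comparison RGCs, while Dbi was read in 48 of 50 and 96.6%. Dbi was also read in 83.3% of IPCs and 41.1% of ENs, so it separates the classes less than Slc1a3, read in 16.7% and none. Nes, the filament protein nestin, and Ddah1, an arginine-metabolising enzyme, were lower too, with log2 ratios of -2.84 ± 3.30 and -1.17 ± 0.41. Several of these ratios rest on the 11 CAG_mRFP cells: among Hes5_GFP cells alone they were -0.36 for Sox9, -0.37 for Slc1a3, -0.51 for Nes and -0.88 for Ddah1, short of 2-fold, and -1.29 for Pax6. In strata of at least 3 cells without sort day 4, the ratio of Slc1a3 was 0.36.

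Notch genes were mostly lower on sort day 4. Of 7 measured members of that list, 6 were lower and 1 higher, beside 46.7% lower over all genes, with a median log2 ratio of -2.68. Hes5, the Notch target whose promoter drives the GFP reporter, was read in 2 of 53 cluster 7 cells and 43.97% of comparison RGCs, at 1.36 and 54.8 CPM (log2 ratio -4.52 ± 0.30). Sort day 1 differed: Hes5 was at 145.1 CPM with a read in 3 of 8 cluster 7 cells and at 74.4 CPM in the comparison RGCs. Hes1, the other main Hes target in radial glia, was read in 15 of 53 and 67.7% of cells, at 25.4 and 84.9 CPM (-2.48 ± 1.67). Notch1 stood at 44.8 and 84.8 CPM (-2.45 ± 2.81, and -0.47 among Hes5_GFP cells), and Notch2 was the higher member, at 432.4 and 223.5 CPM (1.21 ± 0.20). The GFP reporter itself did not share the depletion of Hes5 in level: among Hes5_GFP cells eGFP was at 129.4 CPM in cluster 7 and 110.9 CPM in the comparison RGCs, with no read in the CAG_mRFP cells of either. The reporter was read in a smaller share of cluster 7 cells, 15 of the 42 Hes5_GFP cells, than of comparison RGCs, 67.2%. That comparison share is over both sort markers, and CAG_mRFP cells without a read can only lower it. Hes5 and Hes1 belong to the radial glia list as well, so their low values enter both counts.

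Genes of the IPC and neuron lists were read in few cluster 7 cells, some of them at high level. Of the IPC list 2 of 10 measured genes were higher and 2 lower, and of the neuron list 4 of 10 were higher and 2 lower, beside 8.61% higher and 46.7% lower over all genes. The lower neuron genes were Map2, read in 11 of 53 cluster 7 cells and 55.6% of comparison RGCs, and Gap43, in 4 and 32.8%. The lower IPC genes were Btg2, read in 2 cells and 34.9%, and Dll1, in 0 and 12.1%. Among Hes5_GFP cells alone Gap43 (-0.05) and Btg2 (-0.19) were short of 2-fold. Neurod6, a transcription factor of cortical excitatory neurons, had the highest log2 ratio of any gene that met the naming rule (6.43 ± 2.08). It was read in 16 of 53 cluster 7 cells and 12.5% of comparison RGCs, at 823 and 6.85 CPM, and 1 cell gave 41.5% of its cluster 7 reads. Pooled over the 11 CAG_mRFP cells of cluster 7 its level was 2335 CPM, with a read in 6, and it had a read in 10 of the 42 Hes5_GFP cells. Tubb3, neuronal tubulin, was at 254.2 and 71.5 CPM, but in 8 cells of cluster 7, of which 1 gave 70.1% of the reads. Among Hes5_GFP cells its log2 ratio was 0.55 against the 3 clusters and -0.43 against cluster 3 alone. Eomes, the transcription factor that marks IPCs, was read in 5 of 53 and 14 comparison cells, and Dcx, a microtubule protein of migrating neurons, in 3 and 10 cells. Among the 18 cluster 7 cells of the other days, Neurod6 had a read in 2 cells and at most 0.771 CPM pooled over a day, and without sort day 4, in strata of at least 3 cells, its ratio was -1.39.

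Proliferation genes followed the comparison cluster. Against clusters 0, 1 and 3 together, 20 of 32 G2 and mitosis genes and 13 of 30 S phase genes were lower in cluster 7 and none of either list was higher. The S phase share is near the 46.7% of all genes that were lower. Clusters 0 and 3 hold cells called G2M for the most part, with 5 and 0 cells called G1, and cluster 1 holds 6 cells called G2M. Against cluster 1 alone, with at least 5 comparison cells per stratum, 12 of the 32 G2 and mitosis genes were higher in cluster 7 and 1 lower. Their median log2 ratio was 0.33, while 19 of the 30 S phase genes were lower. Over all 9856 genes measured against cluster 1, 944 were higher and 4168 lower. Top2a, a DNA topoisomerase of G2 and mitosis, was read in 26 of 53 cluster 7 cells. Its log2 ratio was -1.99 against the 3 clusters over both sort markers. Among Hes5_GFP cells it was -1.57 against the 3 clusters and 0.76 against cluster 1 alone. Mki67, which codes for the Ki-67 antigen, was read in 15 of 53 cells. The day 4 cells of cluster 7 comprised 42 cells called G1, 2 S and 9 G2M, and cells of 1 phase were not compared apart.

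The genes read in nearly every cluster 7 cell lay above the shared shift. Detection in 80% or more of the 53 cells was found for fewer genes than in the comparison RGCs, where 845 genes reached it. In cluster 7 these genes had a median log2 ratio of 1.51. Most of them were higher by the 2-fold rule, and 4 were lower (Hnrnpk, Ywhaz, Hnrnpa2b1 and mt-Atp6). Over all genes 8.61% were higher and 46.7% lower. The choice of genes by their cluster 7 detection favours a split towards higher genes. The 12 with the highest ratios, chosen after their values were seen, were 2010107E04Rik, Ubl5, Atp5j2, Rps27l, Atpif1, Tmsb10, Cox7a2, Ndufa2, Cox7c, Usmg5, Atp5j and Rpl26. Atpif1, the inhibitor of mitochondrial ATP synthase, had 1216 against 198.7 CPM, and Cox7a2, a subunit of cytochrome c oxidase, 636.1 against 162.2 CPM. Tmsb4x, the actin-binding thymosin beta 4, was read in all 53 cells at 9500 against 2317 CPM (log2 ratio 2.13 ± 0.44). H2afz, a histone variant, was read in 52 cells at 12855 against 5015 CPM (1.42 ± 0.03), with median cells at 13184 and 4692 CPM. Other days did not all share these directions: on day 1 Cox7a2 was at 120.5 CPM in cluster 7 and 137.1 CPM in the comparison RGCs and Ndufa2 at 86 and 128.2 CPM, while Atpif1 was at 422.4 and 192.7 CPM. On day 5 2010107E04Rik was at 11.4 and 68.7 CPM.

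Transcript length went with the ratios. The 826 genes read in 80% or more of the day 4 comparison RGCs and with a length in GENCODE M21, out of 845, were ordered by their longest annotated transcript and divided into 4 groups of near equal size. The shortest group (up to 1251 bases) had a median log2 ratio of 1.45, with 64.2% of its genes higher and 3.38% lower in cluster 7. The next groups had medians of -0.07 and -0.40, and the longest (3641 to 21452 bases) a median of -0.70, with 12.1% higher and 34.8% lower. The groups also differed in level: median CPM from the shortest to the longest was 158.9, 371.6, 432.1 and 431.7 in the comparison RGCs and 382.1 in the shortest and 393.5 in the next group in cluster 7, where the longer groups lay lower. The order held in each sort marker, from 1.23 to -0.24 among Hes5_GFP and from 1.55 to -0.83 among CAG_mRFP cells between the shortest and the longest group. Of the genes named above, Dbi, Atpif1, Cox7a2 and Tmsb10 are in the shortest group. Whether the length of the transcripts or another property of these genes goes with the ratio was not tested.

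**Figure D4:**
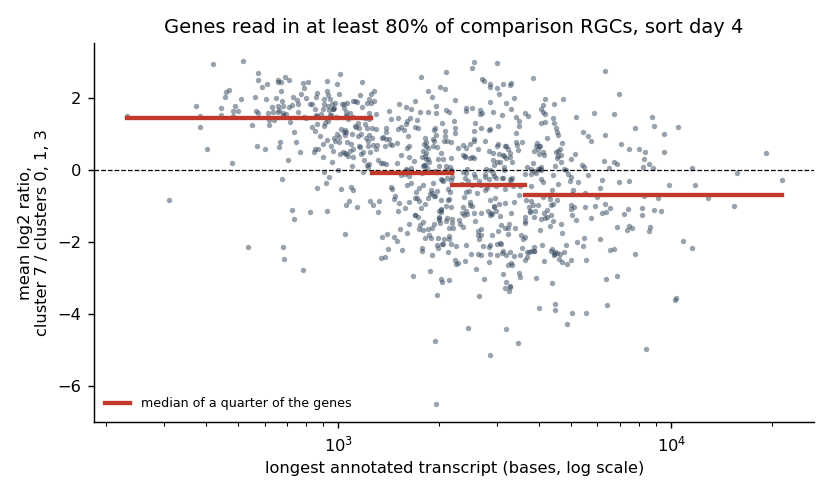
Mean log2 ratio of cluster 7 to comparison RGCs (y axis) against the longest annotated transcript in bases on a log axis (x axis) for 826 genes read in 80% or more of the day 4 comparison RGCs, 1 point per gene. Red lines mark the medians of 4 length groups, 1.45 for the shortest genes and -0.07, -0.40 and -0.70 for the others.

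The mitochondrially encoded genes, which are transcribed as shared precursors, did not move as a block. Of 13 genes, 3 were higher and 5 lower, beside 8.61% higher and 46.7% lower over all genes. The cytochrome b gene mt-Cytb was at 13406 CPM in cluster 7 and 5602 in the comparison RGCs and was read in every cell of both (log2 ratio 1.32 ± 0.02), and mt-Nd2 and mt-Nd6 were higher as well. The oxidase subunit genes mt-Co2 (88.3 and 328.3 CPM, -2.46 ± 0.20) and mt-Co3 (108.1 and 517.4 CPM, -2.77 ± 0.34) and the ATP synthase gene mt-Atp6 (292.7 and 894.9 CPM, -2.15 ± 0.58) were lower. The gene mt-Co1 stood at 2626 and 2969 CPM (-0.14 ± 0.12). The higher mitochondrial share of cluster 7 was thus carried by part of these genes.

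Other gene groups are given beside 8.61% higher and 46.7% lower over all genes. Of 15 housekeeping genes 3 were higher and 3 lower, and Actb, the cytoplasmic actin, was read in all cells of both groups at 5364 and 7364 CPM (log2 ratio -0.36 ± 0.29). Of 14 glycolysis genes 8 were lower and 0 higher. Of the 5 measured immediate early genes 4 were lower, among them Jun, read in 5 of 53 cluster 7 cells and 84.05% of comparison RGCs at 16.5 and 432.3 CPM. Mdm2, a p53 target, was lower at 18.7 and 114.7 CPM, with a read in 3 of 53 cluster 7 cells. Of 10 stress genes 1 was lower and 0 higher. Malat1, a nuclear RNA, stood at 1962 and 2762 CPM (-0.33 ± 0.44).

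Markers of other cell types were at 0 in most cells. Over all 71 cells, the Cajal-Retzius genes in the table (Reln, Nhlh2 and Ebf3) and the pericyte genes (Rgs5 and Pdgfrb) had no read in cluster 7. The summed endothelial genes ran from 0 to 1580 CPM with a read in 4 cells, and Cldn5, Flt1, Cdh5, Esam and Egfl7 had none. The summed erythroid genes had a read in 10 cells and passed 1000 CPM in 1 cell, at 6952 CPM, mostly Hbb-bs. The ventral and inhibitory list had a read in 7 cells, with Gad1 at 0. The meningeal genes had a read in 2 cells, at most 600.8 CPM, and the microglial gene Csf1r in 3 cells, at most 394.9 CPM. Otx2, a homeobox gene of the anterior brain and choroid plexus that was chosen after its values were seen, was at 14310 CPM over the 3 cluster 7 cells of sort day 2, with a read in 2 of them. It had no read in any comparison RGC and at most 0.434 CPM in cluster 7 on the other days. In the comparison RGCs the highest cell had 8040 CPM of endothelial and 274.1 CPM of erythroid genes.

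The other 11 genes of the 12 with the highest ratios rested on few cells. They were Nlk, Mageh1, Mex3b, Rab24, Wdr53, Ankhd1, Map4k3, Elavl4, Dach1, Evl and Nbea, with mean log2 ratios of 4.04 to 5.14. Each was read in 2 to 10 of the 53 cluster 7 cells, and the single highest cell gave 35.5% to 91.2% of its reads. Elavl4, an RNA-binding protein of neurons, was read in 10 cells at 212.7 against 33.1 CPM (4.28 ± 1.91). Wdr53, in contrast, owed its place to 2 cells and a ratio of 8.88 among CAG_mRFP cells beside 0.09 among Hes5_GFP cells. With strata by plate, which kept only the 4 plates of Hes5_GFP cells, 6 of the 12, among them Wdr53 and Nbea, had negative ratios.

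The 12 lowest genes had 0 to 3 counts in all 53 cluster 7 cells together. They were Cyr61, Cyp39a1, Nadk, Bap1, Narf, Dgcr2, Ercc6l, Tmem263, Vopp1, Tgif2, Atp6v1a and Mum1. Cyp39a1, an oxysterol hydroxylase, had no count, and with a floor of 3 counts over the group it was at least 464.7-fold lower than its 237.2 CPM in the comparison RGCs, where 52.2% of cells had a read. Nadk, NAD kinase, was at least 267.2-fold lower and Tgif2, a homeobox repressor, at least 247.3-fold lower by the same floor. These bounds are of sort day 4: in strata of at least 3 cells without that day, the log2 ratio was -0.58 for Cyp39a1 and -0.86 for Nadk. Cyr61, a secreted matrix protein, had 2 counts against 283.4 CPM, 832.5-fold lower (counting interval 230.5 to 6874.6). Bap1, a nuclear deubiquitinase, had 1 count against 188.9 CPM, 1110-fold lower (199.2 to 43838.3). These bounds cover counting error of the pooled reads, and with cells this sparse fewer detecting cells and less RNA per cell cannot be told apart.

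Within cluster 7, the sort markers were compared as values, since no more than 1 sort day had at least 5 cells of each. On sort day 4 the radial glia list summed to 12639 CPM in the 42 Hes5_GFP cells (Poisson 95% interval 12533 to 12747, counting error only) and 5505 CPM (5392 to 5620) in the 11 CAG_mRFP cells. The neuron list went the other way, with 668.7 CPM (644.3 to 693.7) and 3299 CPM (3212 to 3389). Most of its 5384 counts in the CAG_mRFP cells came from Neurod6 (3810 counts in 6 cells) and Tubb3 (1048 counts in 2 cells). Sox9 stood at 524.2 and 94.4 CPM, with a read in 28 of 42 and 4 of 11 cells, and Slc1a3 at 546.1 and 34.3 CPM, in 16 and 1 cells. Fabp7 stood at 3740 and 773 CPM. The mRFP transcript, driven in both groups by the CAG promoter, was read in 13 of 42 and 3 of 11 cells. Sort day 1 gave the same order for the radial glia list in 4 cells each, 7677 and 3134 CPM. These intervals do not cover differences between cells.

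Cluster 7 made up 11.2% of all RGCs of the series, and its share differed between sort days. It was 17.5% on day 4 (53 cells) and 1.98% on day 5 (5 cells). By sort marker on day 4 it was 15.9% of Hes5_GFP RGCs (exact 95% interval 11.7 to 20.9) and 28.2% of CAG_mRFP RGCs (15 to 44.9). It was 23.5% on day 1 (8 cells) and 4.54% on day 3 (2 cells). All 3 RGCs of sort day 2 were in cluster 7.

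The day 4 cells of cluster 7 also shared a position. Cell names end in a letter and a number that have the form of a plate row and column, which the labels do not state. Of the RGCs of cluster 7 and the comparison clusters with a number of 1 to 4, 46 were in cluster 7 and 60 were not, and with 5 to 12, 7 were in cluster 7 (3.91%). The mean number was lower for cluster 7 than for comparison RGCs on all 6 plates, 2.92 ± 0.80 against 6.83 ± 0.95 (SD, n = 6 plates), by 1.83 to 5.76. All 6 plates were of 1 sort day, 4 of Hes5_GFP and 2 of CAG_mRFP cells, and the boundary of 4 was chosen after the positions were seen. Comparison RGCs of columns 1 to 4 had fewer detected genes than those of columns 5 to 12 on 4 of 6 plates, by plate medians of 3177 ± 1032 against 3560 ± 484.2. Over all cells outside cluster 7, the plate medians were lower in columns 1 to 4 on 6 of 6 plates, for example 1443.5 against 2190 genes and 2888 against 3518 genes. The 5 cluster 7 cells of day 5 had numbers of 9 to 12. What the number stands for in the handling of the cells, and its part in the low complexity, was not tested.

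**Figure D5:**
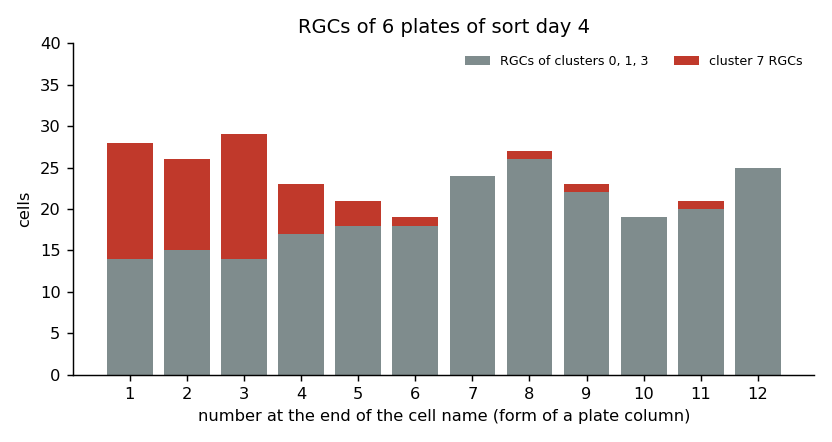
Number of RGCs of sort day 4 (y axis) by the number at the end of the cell name (x axis), with cluster 7 in red stacked on clusters 0, 1 and 3 in grey, over 6 plates. Numbers 1 to 4 hold 46 of the 53 cluster 7 cells and 60 comparison RGCs.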

How the data were processed

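The authors deposited a table of counts per gene and cell (16839 genes, 1115 cells), a table of natural log values and a cell table with cluster, cell type, phase, sort date and the mitochondrial fraction of each cell. HISAT2, Seurat version 2 and build mm10 are named, per the submitters' processing notes, and no counting tool is given in the sources used here. The deposited natural log values are ln(1 + counts per 10000); turned back, 2.80% of values above 0 are not whole within 0.01 and the largest difference from the count table is 0.748, so the count table is a rounding. Totals ran from 1912 to 1772986 counts per RGC compared. No 2 cells had identical counts.

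Of 636 RGCs, 71 were in cluster 7 and 226, 197 and 122 (545 in all) in clusters 0, 1 and 3; on sort day 4 these were 53 cells, 42 of them Hes5_GFP, and 232 cells, 219 of them Hes5_GFP. The series held 731 Hes5_GFP and 384 CAG_mRFP cells.

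Members and lists were chosen with earlier results of these data known. Cluster 7 RGCs were compared with RGCs of clusters 0, 1 and 3 within sort day and sort marker, in strata with at least 5 and 10 cells, which left sort day 4 with 2 strata. Named genes are the 12 highest and 12 lowest mean log2 ratios among genes with at least 20 CPM and a read in 10% of cells on either side and 1 sign, leaving out genes of the mitochondrion and of ribosomal proteins and Gm or Rik models, plus a fixed set. Scripts used Python 3.11.15, numpy 2.4.6, pandas 2.3.3 and scipy 1.17.1, with edgeR 4.0.16 and DESeq2 1.42.0 for scaling factors only; no gene was tested. The counts of the list of p53 targets and cell death genes are not reported here. Ratios and class calls were tested on simulated data. The edgeR test of sort markers within cluster 7 was not run, as fewer than 3 sort dates had 5 cells of each. Doublets were not called, since the cells were sorted singly.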

Additional observations from a re-analysis of the deposited data

Results flagged for a closer look

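On the 6 plates of sort day 4, plate L1A stood apart from the other 5 by Dixon's criterion in 2 measures: the mean column of its comparison RGCs, 5, and the share of RGCs in cluster 7 in its columns 5 to 12, 33.3%. It held 4 comparison RGCs and 1 of 3 RGCs of those columns in cluster 7, and chance flags about 1 in 20 groups. The 8 plate measures examined included the share of RGCs in cluster 7 over the plates of sort day 5.

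Among CAG_mRFP cells the mRFP transcript was higher in cluster 7 than in the comparison RGCs, with a log2 ratio of 5.53, and among Hes5_GFP cells lower, with -2.82. The levels were 1437 and 30.1 CPM in the first pair and 127.5 and 909.3 CPM in the second, and 1 cell gave 80.98% of the cluster 7 reads. Sox2, a progenitor transcription factor, had ratios of -1.49 and 1.57 in the same pairs, with a read in 13 of 53 cluster 7 cells. Neither difference between sort markers was tested.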

How the results depend on the processing

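Sort day 4 carries the gene comparison: without it no stratum of at least 5 cluster 7 cells was left. Strata of at least 3 cells cover days 1, 4 and 5, but no gene was tested over days, because the clusters were formed from the same genes. No paired analysis was possible because replicate numbers only name single cells, and the sort-marker test within cluster 7 and its 3 alternatives were not run. Reads without molecular identifiers limit what shares of detecting cells can show.

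The share of cells nearest to the RGC mean stayed between 70.6% and 77.6% under the alternatives run. The ratio of detected genes at a fixed depth was 0.519 at 2000 counts, 0.294 at 50000 counts and 0.291 without thinning. It was 0.508 with strata of at least 3 cluster 7 cells. Without each other day it was 0.349, which could not change, since only day 4 had strata of at least 5 cluster 7 cells. Of the genes measured, 8.61% were higher in cluster 7, and this became 13.6% with DESeq2 size factors. It was 2.38% (lower genes 27.9%, against 46.7%) with strata of at least 3 cells. Strata by plate gave 4.18% over the 4 Hes5_GFP plates, since both CAG_mRFP plates held fewer than 10 comparison RGCs. Clusters 0, 1 and 3 alone gave 19.4%, 19.2% and 21.3%. Each of these 3 settings kept 1 stratum, of Hes5_GFP cells, so 1 sign in both sort markers was not required. Hes5_GFP cells against all 3 clusters gave 18.2%. Leaving out day 1, 2, 3 or 5 removed no stratum, so 8.61% could not change. Leaving out a sort marker, or a day in strata of at least 3 cells, gave 3.38% to 18.2% higher. The cause of these shifts was not tested.

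Of 1078 alternative values for 49 single genes, 34 in 16 genes had the opposite sign. The 1078 include the values without day 1, 2, 3 or 5, which could not change. Averaging CPM per cell, or the authors' normalized values, gave Neurog2 -0.25. Strata by plate, all of Hes5_GFP cells, gave Mex3b -0.72, Rab24 -1.17, Wdr53 -2.20, Ankhd1 -1.85, Map4k3 -2.19, Nbea -2.09 and Neurog2 -0.18. The comparisons with 1 cluster alone kept Hes5_GFP cells only. Against cluster 0 alone Ankhd1 was -0.11 and Btg2 0.68. Against cluster 1 alone Wdr53 was -0.31, Top2a 0.76 and the log2 ratio of Neurog2 -0.00954. Against cluster 3 alone Map4k3 was -0.10, Neurog2 -0.00509 and Tubb3 -0.43. Strata of at least 3 cells gave Ankhd1 -0.65, Nbea -0.41 and Neurog2 -0.64. Leaving out a sort marker, or a day together with the minimum of 3 cells, gave ranges of -1.39 to 7.90 for Neurod6, -0.57 to 8.18 for Mageh1, -2.75 to 6.43 for Mex3b, -3.10 to 8.88 for Wdr53, -5.74 to 8.40 for Ankhd1, -0.98 to 7.83 for Map4k3, -1.30 to 5.69 for Dach1, -3.06 to 6.52 for Evl, -4.85 to 5.48 for Nbea, -7.77 to 0.84 for Vopp1, -4.37 to 0.36 for Slc1a3, -2.44 to 1.97 for Neurog2 and -8.22 to 1.11 for Btg2.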
